A study of Rattus norvegicus with 6 samples.

Results

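The cells were RSC96, a rat line of Schwann cells that divides without limit and is of wild-type genotype, kept with the piezoelectric material PVDF@PDA in a hypoxia model and compared with Control. Of the 6 libraries of the series, 4 were chosen by their titles and treatment fields: 2 labelled hypoxia with PVDF@PDA and 2 labelled Control. A piezoelectric material produces electric charge when it is deformed. The PVDF@PDA cells had spent 24 h in medium conditioned by macrophages, which the study used to model a hypoxic environment. The labels give no medium, oxygen level or carrier material for Control, so every difference from Control is a difference between whole conditions. The other 2 libraries, labelled hypoxia with PCL@PDA, came from cells with a non-piezoelectric material in the same model. They served here as the reference for whether a shift was larger with PVDF@PDA. Each group holds 1 library of batch 1 (replicate 1) and 1 of batch 3 (replicate 3). The labels do not say that these were separate cultures, so p-values measure only the spread between libraries, which may be technical.

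Schwann cells wrap peripheral axons, and after nerve injury they leave the cell cycle arrest of the adult nerve, divide, release chemokines and trophic factors and remodel their matrix. Dividing cells copy DNA in S phase, driven by E2F transcription factors, and then build a spindle under a second wave of genes that peaks in G2 and mitosis. Low oxygen stabilises hypoxia-inducible factors (HIF), which raise glucose uptake, glycolysis and angiogenic signals, while NF-kB and interferon signalling turn on chemokines and antiviral genes.

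Transcript levels are read counts scaled for library size by the TMM method (CPM), given for replicate 1 and then replicate 3. Total counts were 32760123 to 35389307 per library, and 13018 of 16849 genes had enough counts to be tested. Differences are log2 values with standard error (SE), tested by edgeR's quasi-likelihood test with Benjamini-Hochberg adjustment over all 13018 genes, and a gene was called at an adjusted p below 0.05. Adjusted p-values are from this edgeR fit unless a sentence names a different tool. By the chi-square of their counts over its degrees of freedom, the 2 PVDF@PDA libraries lay 4.8 apart, the 2 Control libraries 5.56, and PVDF@PDA from Control libraries 21.0 to 22.4. PCL@PDA replicate 3 stood apart, at 12.5 and 12.8 from the PVDF@PDA libraries against 4.42 and 5.28 for PCL@PDA replicate 1. Of the markers that define Schwann cells, Ngfr and Cdh19 had at most 4 counts in any PVDF@PDA or Control library and S100b had 4 to 28, while Erbb3 had 349 to 609. The 13 Schwann markers in the table summed to 138 to 141 CPM of library totals with PVDF@PDA and 140.04 to 141 in Control, but single members moved in opposite directions. Of the 10 tested, 2 were called higher, Mia (log2 1.34, adjusted p = 0.00163) and Pmp22 (log2 0.28, adjusted p = 0.0127). The 2 called lower were Erbb3 (log2 -0.72, adjusted p = 0.000131) and Sox2 (log2 -0.25, adjusted p = 0.0363). The 11 macrophage markers in the table summed to 9.04 to 9.10 with PVDF@PDA and 8.22 to 8.25 in Control. None of the 6 that could be tested was called, and 4 of them lay above Control. Cd68 had 23 and 31 counts with PVDF@PDA against 0 and 10 in Control (log2 2.43, adjusted p = 0.0688). Coro1a had 62 and 60 against 30 and 29 (log2 1.07, adjusted p = 0.0847), while Fcer1g had 4 and 2 against 24 and 12 (log2 -2.52, adjusted p = 0.0716). Cd14, at 4.98 and 5.09 CPM against 5.78 and 6.02, made up most of the sum. These genes lie outside the naming rule. Ptprc and Aif1 had 0 or 1 count in each of these libraries.

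Between PVDF@PDA and Control, 2042 of 13018 genes (15.7%) were called, 884 higher (6.79%) and 1158 lower (8.90%). Most differences were modest: the median size among called genes was 0.34 on the log2 scale, and 139 genes passed 1. With library totals alone as the scaling, 1164 were higher and 879 lower, so the share of higher calls moved from 43.3% to 57.0%. Without 1 of the 4 libraries the count was 1031 (without PVDF@PDA replicate 3) to 1267 (without Control replicate 3). In bulk samples, fewer cells of a kind and less RNA per cell cannot be told apart. The chart of gene lists sets the members called in each direction against the shares over all genes, with mitosis, chemokine, interferon and NF-kB genes at the lower end and replication, HIF and glycolysis genes at the upper end. Those shares, 6.79% higher and 8.90% lower, are the background for each count of list members called against Control below.

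**Figure D1:**
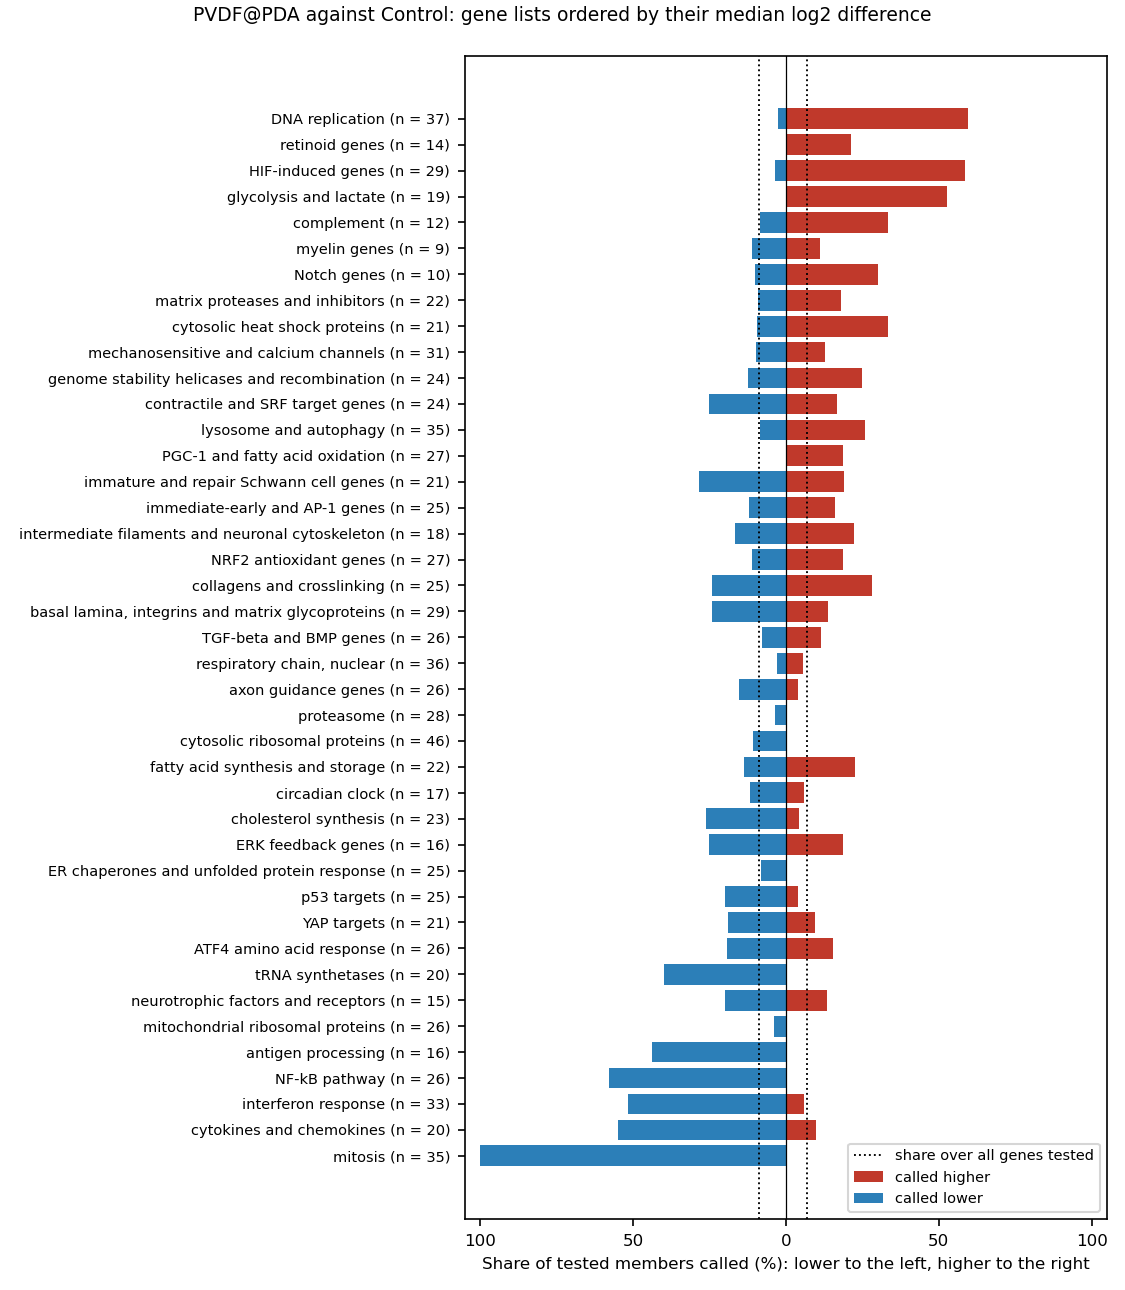
Share of the tested members of each of 41 gene lists that were called higher (right, red) or lower (left, blue) with PVDF@PDA than in Control, in percent, ordered by the median log2 difference of the list. Dotted lines mark the share over all genes tested (6.79% higher, 8.90% lower); all 35 mitosis genes lie on the lower side.

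Genes of mitosis were lower with PVDF@PDA while genes of DNA replication were mostly higher. All 35 tested mitosis genes were called lower (background 8.90%), with a median log2 difference of -0.54 against 0.01 over all genes. Of 37 replication genes 22 were called higher (background 6.79%) and 1 lower, with a median of 0.33. Ccnb1, the cyclin that takes cells into mitosis, stood at 179.6 and 190.3 CPM with PVDF@PDA and 292 and 303 in Control (log2 -0.69, SE 0.06, adjusted p = 3.59e-14). Prc1, which bundles the microtubules of the central spindle, stood at 242 and 233 against 369.9 and 356 (log2 -0.61, SE 0.06, adjusted p = 1.58e-12). Top2a, the topoisomerase that untangles chromosomes before they part, stood at 389 and 396 against 561 and 563 (log2 -0.52, SE 0.05, adjusted p = 5.45e-11). In each of these 3 both PVDF@PDA libraries lay below both Control libraries. Over all tested genes the groups were separate in 58.5%, and among the 2042 genes called against Control in 2040. Separation of the groups in a called gene, here and below, is therefore no further support for its call. Anln, a scaffold of the cleavage furrow (log2 -0.55, SE 0.05, adjusted p = 2.85e-11), and the spindle motor Kif11 (log2 -0.57, SE 0.06, adjusted p = 1.75e-10) fell by similar amounts. The 35 differences ran from -0.82 to -0.20, and 30 to 35 members were called without any 1 library.

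Among replication genes, 3 subunits of the MCM helicase that unwinds DNA at the fork had the smallest p. Mcm4 stood at 262 and 259 CPM against 181 and 188 in Control (log2 0.50, SE 0.05, adjusted p = 5.39e-10), and Mcm6 at 169.7 and 154 against 119 and 112 (log2 0.49, SE 0.06, adjusted p = 2.06e-08). Mcm7 stood at 108 and 96.7 against 72.8 and 67.6 (log2 0.54, SE 0.07, adjusted p = 3.30e-08). The groups did not overlap in any of these, with each PVDF@PDA library above both Control libraries. Pola1, the catalytic subunit of the polymerase that primes new strands, rose likewise (log2 0.50, SE 0.07, adjusted p = 8.67e-08). Without 1 library 15 to 24 replication genes were called higher. In a separate list of 24 genome stability genes 6 were called higher and 3 lower, the 6 becoming 2 without PVDF@PDA replicate 1 or Control replicate 3 and 3 without PVDF@PDA replicate 3 or Control replicate 1. The checkpoint kinase Chek1 was higher (log2 0.40, SE 0.07, adjusted p = 1.04e-05). Pif1, a helicase that acts on stalled forks and telomeres, fell from 8.16 and 7.49 to 2.34 and 2.86 CPM (log2 -1.59, SE 0.24, adjusted p = 9.06e-07).

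PCL@PDA against Control, which shares the Control libraries, called 20.1% of genes (8.77% higher, 11.3% lower). No call showed either wave to differ between the materials. The median log2 difference of the mitosis list was -0.59 with PCL@PDA and that of the replication list 0.41, and 0 members of either list differed between the materials. Between the materials Ccnb1 differed by 0.00, with a 95% interval of -0.11 to 0.11, and Mcm7 by -0.14, with an interval of -0.27 to 0.00. With the replicate number as a block, 1 replication gene, Mcm5, was called lower with PVDF@PDA than with PCL@PDA (log2 -0.28, adjusted p = 0.0386), a gene outside the naming rule.

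**Figure D2:**
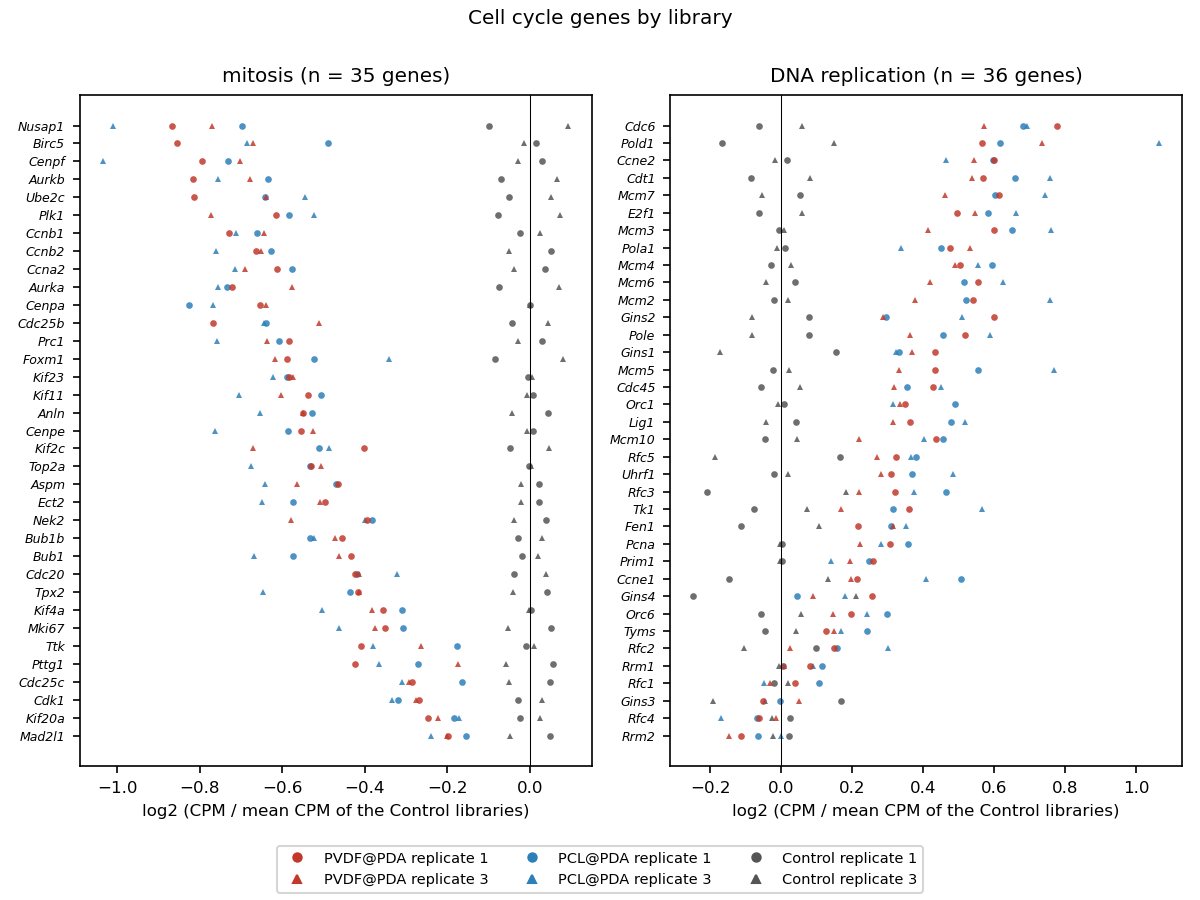
Level of each tested mitosis gene (left, 35 genes) and replication gene shown (right, 36 of the 37) in each library, as log2 of its CPM over the mean of the 2 Control libraries; colours mark the groups, circles replicate 1 and triangles replicate 3. Red PVDF@PDA points lie left of grey Control points for the mitosis genes, and blue PCL@PDA points lie on the same side, on either side of the red ones.

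Promoters of these genes are shown because the members moved together. Promoters were taken from RefSeq (build GRCr8), where 10605 tested genes had one, and 250 bases before the start were searched on both strands. TTTGAA is the core of the cell cycle homology region (CHR), a site known from G2 and mitosis genes, which often lies beside a second site, the box CCAAT. For S-phase genes the E2F site TTTCGCG was searched, and for HIF-list genes ACGTG, the core of the HIF response element. None of these motifs contains another. Of 30 mitosis promoters 14 (46.7%) held the CHR core, against 10.6% of promoters of tested genes, and 24 (80%) held the CCAAT box, against 36.2%. The E2F site stood in 4 of 29 replication promoters (13.8%) against 1.4%, and the HIF core in 11 of 23 HIF-list promoters (47.8%) against 22%. Over all 27457 promoters of the table the shares were 16% for the CHR core, 34.3% for the CCAAT box, 0.707% for the E2F site and 16.9% for the HIF core. Among all 425 tested genes with both the CHR core and the CCAAT box, 80 (18.8%) were called lower and 16 (3.76%) higher, against 9.01% and 6.69% of all tested genes with a promoter. The other motifs lay closer to those shares: of 148 genes with the E2F site 11.5% were higher and 9.46% lower, and of 2329 with the HIF core 8.16% were higher and 8.72% lower. The 425 genes with both CHR and CCAAT include mitosis-list members such as Prc1 and Top2a, which were called lower. Their share therefore partly repeats the result of that list. A match describes letters in this window and is not a bound site. The 120 bases before the start are printed 5′ to 3′ on the strand of the gene, for 3 mitosis genes with CHR and CCAAT, 2 MCM genes with the E2F site and 2 HIF-list genes with the HIF core. Capitals mark only the motifs for which a gene is shown, those on the other strand as their reverse complement, and other searched motifs may stand in lower case, such as CCAAT in Mcm7 and Bnip3 and the HIF core in Mcm2. Kif23, a mitotic kinesin (log2 -0.58, SE 0.07, adjusted p = 2.78e-08), Mcm2 (log2 0.46, SE 0.07, adjusted p = 4.01e-06) and the glucose transporter Slc2a1 (log2 0.30, SE 0.06, adjusted p = 7.84e-05) lie outside the naming rule and were chosen for these sites after their values were seen.
Prc1, chr1:143659361-143659480, plus strand: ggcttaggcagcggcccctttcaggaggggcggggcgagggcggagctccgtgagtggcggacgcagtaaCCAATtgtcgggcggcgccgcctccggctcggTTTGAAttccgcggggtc
Top2a, chr10:84473094-84473213, minus strand: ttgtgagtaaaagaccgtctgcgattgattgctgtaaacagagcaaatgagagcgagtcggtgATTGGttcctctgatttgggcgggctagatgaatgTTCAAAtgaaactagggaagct
Kif23, chr8:71320585-71320704, minus strand: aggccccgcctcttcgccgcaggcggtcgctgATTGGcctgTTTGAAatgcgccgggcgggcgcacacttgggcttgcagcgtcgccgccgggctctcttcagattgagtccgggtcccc
Mcm7, chr12:22163179-22163298, minus strand: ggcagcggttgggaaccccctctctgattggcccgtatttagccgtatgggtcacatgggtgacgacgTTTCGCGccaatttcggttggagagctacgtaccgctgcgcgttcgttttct
Mcm2, chr4:122918095-122918214, minus strand: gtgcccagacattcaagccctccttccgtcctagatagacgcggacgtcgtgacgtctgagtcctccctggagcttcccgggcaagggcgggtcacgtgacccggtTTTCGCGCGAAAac
Bnip3, chr1:203154963-203155082, minus strand: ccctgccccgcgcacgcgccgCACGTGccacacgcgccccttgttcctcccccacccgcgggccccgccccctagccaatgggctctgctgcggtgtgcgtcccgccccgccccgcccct
Slc2a1, chr5:138002402-138002521, plus strand: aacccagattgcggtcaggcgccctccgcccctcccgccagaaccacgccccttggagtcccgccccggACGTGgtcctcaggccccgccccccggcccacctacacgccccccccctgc

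Genes known to respond to HIF were mostly higher, as were glycolytic enzymes. Of 29 HIF-list genes 17 were called higher (background 6.79%) and 1 lower, with a median of 0.30, and of 19 glycolysis and lactate genes 10 were higher and 0 lower, with a median of 0.26. Higd1a, a mitochondrial protein that supports respiration in low oxygen, stood at 87.6 and 91.5 CPM against 50.5 and 56.8 (log2 0.74, SE 0.07, adjusted p = 1.38e-11). Bnip3, a mitophagy receptor whose promoter is printed above, stood at 244 and 239 against 156 and 166 (log2 0.59, SE 0.06, adjusted p = 1.38e-11). Ero1a, an oxidase of disulfide formation, stood at 282 and 302 against 202 and 231 (log2 0.43, SE 0.06, adjusted p = 1.18e-07). In none of the 3 did the groups overlap. The neuronal-type glucose transporter Slc2a3 (log2 0.39, SE 0.05, adjusted p = 3.30e-08), the collagen hydroxylase P4ha1 (log2 0.37, SE 0.05, adjusted p = 3.22e-07) and the triose isomerase Tpi1 (log2 0.36, SE 0.05, adjusted p = 2.84e-07) also rose. Stc2, a secreted glycoprotein named as the one HIF-list member called lower, stood at 33 and 30.02 against 38.8 and 38.5 (log2 -0.30, SE 0.09, adjusted p = 0.0222), a call that ended without PVDF@PDA replicate 3 (adjusted p = 0.281), Control replicate 1 (0.126) or Control replicate 3 (0.0992) and with library totals alone (0.0533). The count of HIF genes called higher was 11 without either PVDF@PDA library and 10 without Control replicate 1, and that of glycolysis genes was 5 without Control replicate 1. With PCL@PDA the medians were 0.32 and 0.32, and 0 members of either list differed between the materials. Higd1a differed between them by 0.08 (95% interval -0.06 to 0.22) and Bnip3 by 0.02 (-0.09 to 0.14). With the replicate block 1 glycolysis gene, Eno1, was called lower with PVDF@PDA than with PCL@PDA (log2 -0.16, adjusted p = 0.0197).

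Some genes of fatty acid oxidation rose. Of 27 genes of PGC-1 and fatty acid oxidation 5 were called higher and 0 lower (6.79% and 8.90% over all genes), and the list median was 0.06. Ppargc1a, the coactivator of mitochondrial biogenesis, stood at 3.98 and 3.91 CPM against 1.02 and 1.03 (log2 1.94, SE 0.32, adjusted p = 7.09e-06). Cpt1a, the carnitine transferase that admits fatty acids to mitochondria, stood at 48.7 and 43.4 against 25 and 25 (log2 0.88, SE 0.09, adjusted p = 9.34e-11). Acaa2, the last enzyme of the oxidation cycle (log2 0.87, SE 0.15, adjusted p = 1.23e-05), and Angptl4, an inhibitor of lipoprotein lipase (log2 0.56, SE 0.08, adjusted p = 1.41e-07), rose as well, with no overlap between the groups in these 4 genes. The fifth, the acyl-CoA dehydrogenase Acadm (log2 0.43, SE 0.12, adjusted p = 0.00876), was no longer called without PVDF@PDA replicate 1 (adjusted p = 0.145) or Control replicate 3 (0.219). Ppargc1a lay at 2.86 and 3.36 CPM with PCL@PDA, below both PVDF@PDA libraries, but the difference of 0.34 (95% interval -0.23 to 0.92) was not called.

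Lipid synthesis genes moved both ways, beside 6.79% higher and 8.90% lower over all genes. Of 22 genes of fatty acid synthesis and storage 5 were called higher and 3 lower, and the 5 became 2 without PVDF@PDA replicate 1 and 1 without Control replicate 1. Scd2, the stearoyl-CoA desaturase that makes monounsaturated fatty acids, had the smallest p of all named falls, at 255 and 259 CPM against 494 and 521 (log2 -0.98, SE 0.05, adjusted p = 8.80e-21). Srebf1, the transcription factor of fatty acid synthesis, stood at 21 and 19.8 against 32.5 and 33.6 (log2 -0.69, SE 0.11, adjusted p = 3.19e-06), and the desaturase Fads1 fell too (log2 -0.29, SE 0.06, adjusted p = 0.000208). Plin2, the coat protein of lipid droplets, rose from 364 and 370.2 to 508 and 519 (log2 0.48, SE 0.05, adjusted p = 1.54e-10). Of 23 cholesterol synthesis genes 6 were called lower and 1 higher, with a median of -0.06. The sterol sensor partner Insig1 (log2 -0.48, SE 0.09, adjusted p = 3.92e-05), the transcription factor Srebf2 (log2 -0.38, SE 0.07, adjusted p = 0.000141) and the isoprenoid synthase Fdps (log2 -0.42, SE 0.08, adjusted p = 6.10e-05) fell, while Sc5d, which acts near the end of the pathway, rose (log2 0.44, SE 0.09, adjusted p = 0.000146). Insig1 was not called by limma on log2(FPKM + 1) (adjusted p = 0.0567), and that fit called 3 of the 6 lower. Scd2 differed between the materials by 0.01 (95% interval -0.10 to 0.12).

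Of 21 cytosolic heat shock genes 7 were called higher (background 6.79%) and 2 lower (8.90%). Hspa8, the constitutive HSP70 chaperone, stood at 1251 and 1227 CPM against 744 and 725 (log2 0.75, SE 0.05, adjusted p = 5.91e-18), the second largest gain in mean CPM among called genes. Its partner Hsph1 (log2 0.74, SE 0.06, adjusted p = 6.06e-15), the co-chaperone Dnaja1 (log2 0.33, SE 0.06, adjusted p = 2.14e-05) and the small heat shock protein Hspb8 (log2 0.31, SE 0.06, adjusted p = 0.00032) rose with it. Hspa8 was somewhat lower than with PCL@PDA, at 1319 and 1367 (log2 -0.12, SE 0.05, adjusted p = 0.49), a difference that was not called. In the endoplasmic reticulum, 0 of 25 chaperone and unfolded protein genes were higher and 2 lower, near the 8.90% of all genes; Xbp1, a transcription factor of that response, stood at 109 and 115 against 148 and 144 (log2 -0.38, SE 0.06, adjusted p = 3.35e-06). The other, the co-chaperone Dnajc3 (log2 -0.19, SE 0.07, adjusted p = 0.0452), was no longer called by DESeq2 (adjusted p = 0.0858), with library totals alone or without any 1 of the 4 libraries. With the replicate block 6 were lower and 1 higher.

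Inflammatory genes were lower with PVDF@PDA than in Control. Of 20 tested cytokine and chemokine genes 11 were called lower (background 8.90%) and 2 higher (6.79%), with a median of -0.42. The neutrophil attractants Cxcl1, at 340.0 and 384 CPM against 657 and 637 (log2 -0.84, SE 0.05, adjusted p = 2.38e-17), and Cxcl6, at 27.4 and 27.4 against 63.6 and 65.2 (log2 -1.23, SE 0.09, adjusted p = 6.14e-16), changed most clearly. Cxcl12, the ligand of Cxcr4, stood at 278 and 275 against 423 and 421 (log2 -0.61, SE 0.05, adjusted p = 2.29e-13). Il1a, an early cytokine of injury, was low and fell further, from 7.14 and 6.74 to 1.67 and 2.45 (log2 -1.75, SE 0.26, adjusted p = 1.17e-06). The groups did not overlap in these 4 genes. Lif, a cytokine of nerve injury (log2 -0.63, SE 0.07, adjusted p = 3.57e-10), and Cxcl3 (log2 -0.42, SE 0.06, adjusted p = 4.64e-07) also fell. The 2 members called higher, named for that reason, were the interferon-induced chemokine Cxcl10 (log2 0.48, SE 0.09, adjusted p = 3.30e-05) and the macrophage growth factor Csf1 (log2 0.22, SE 0.05, adjusted p = 0.00132), the latter not without PVDF@PDA replicate 3 (adjusted p = 0.0522).

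In the NF-kB pathway 15 of 26 genes were called lower and 0 higher, with a median of -0.30. Nfkbia, the inhibitor that NF-kB itself induces, stood at 60.5 and 61.8 CPM against 100.4 and 111 (log2 -0.79, SE 0.07, adjusted p = 1.51e-12). The subunit precursors Nfkb1, at 65.4 and 63.6 against 104 and 111 (log2 -0.74, SE 0.07, adjusted p = 5.81e-12), and Nfkb2 (log2 -0.52, SE 0.07, adjusted p = 3.47e-08) fell with it. The mitochondrial superoxide dismutase Sod2 (log2 -0.37, SE 0.05, adjusted p = 1.05e-06) and the nuclear cofactor Nfkbiz (log2 -0.55, SE 0.09, adjusted p = 8.57e-06) were lower as well. By limma on log2(FPKM + 1) 8 of the 26 were lower. Of 33 interferon genes 17 were called lower and 2 higher, with a median of -0.30, and the 17 became 7 without PVDF@PDA replicate 3 and 11 without Control replicate 1. Gbp2, an interferon-induced GTPase, stood at 264 and 262 against 477 and 469 (log2 -0.85, SE 0.05, adjusted p = 2.29e-18), and the antiviral GTPase Mx2 at 1.97 and 1.96 against 8.19 and 6.34 (log2 -1.88, SE 0.26, adjusted p = 2.86e-07). Parp14, an ADP-ribosyltransferase (log2 -0.67, SE 0.06, adjusted p = 1.38e-12), and Gbp5 (log2 -1.19, SE 0.17, adjusted p = 3.73e-07) fell too, with the PVDF@PDA libraries below both Control libraries in all 4. The 2 called higher, chosen after their values were seen, were the exonuclease Isg20 (log2 0.58, SE 0.09, adjusted p = 3.59e-06) and the ubiquitin ligase Trim25 (log2 0.29, SE 0.07, adjusted p = 0.00143). Of 16 antigen processing genes 7 were lower (background 8.90%) and 0 higher. Among the 7 were the immunoproteasome subunits Psmb8 (log2 -0.54, SE 0.07, adjusted p = 1.60e-08) and Psmb10 (log2 -1.12, SE 0.19, adjusted p = 8.41e-06) and the peptidase Erap1 (log2 -0.33, SE 0.06, adjusted p = 1.77e-05). By limma on log2(FPKM + 1) 4 of these were lower.

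No call showed these falls to differ from those with PCL@PDA. The medians with PCL@PDA were -0.54 for cytokines, -0.24 for NF-kB and -0.33 for interferon genes, and 0 members of the 3 lists differed between the materials. For Cxcl6 the level with PVDF@PDA lay above the 21.9 and 23.7 CPM of PCL@PDA (log2 0.26, SE 0.09, adjusted p = 0.416), with no overlap and no call. Nfkbia differed by -0.01 (95% interval -0.16 to 0.13).

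**Figure D3:**
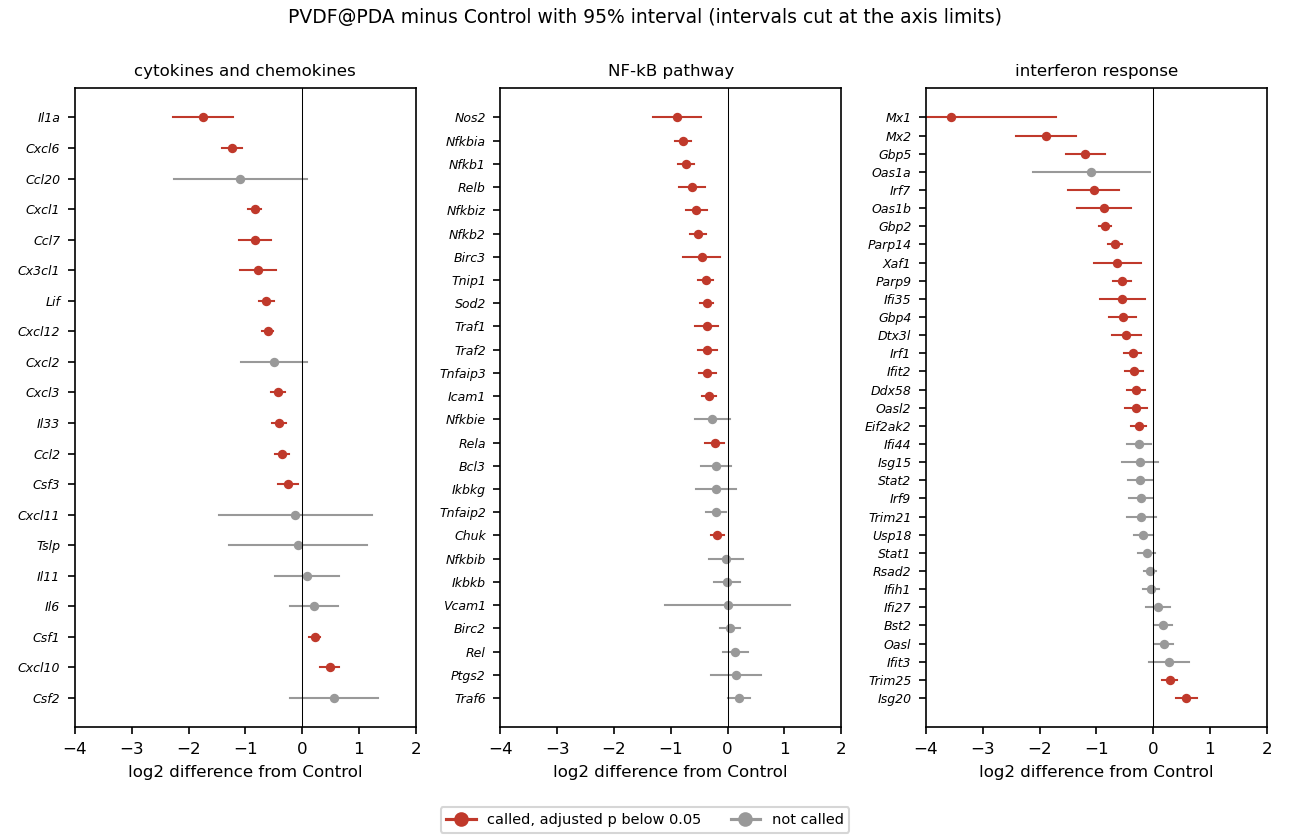
Log2 difference of PVDF@PDA from Control for each tested cytokine and chemokine gene (left), NF-kB pathway gene (middle) and interferon gene (right), with 95% intervals; red genes were called and grey ones were not. Called genes lie left of 0 except Csf1, Cxcl10, Trim25 and Isg20.

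Schwann cell state genes moved in both directions, beside 6.79% higher and 8.90% lower over all genes. Of 21 tested immature and repair genes 4 were called higher and 6 lower, the 6 becoming 3 without PVDF@PDA replicate 3 or Control replicate 3. Erbb3, the receptor for the axonal growth signal neuregulin, stood at 11.3 and 10.2 CPM against 17.8 and 17.5 (log2 -0.72, SE 0.14, adjusted p = 0.000131). Gdnf, a trophic factor of repair cells, stood at 64.8 and 69.7 against 92.1 and 88.7 (log2 -0.43, SE 0.07, adjusted p = 8.53e-06). The adhesion molecule Ncam1 (log2 0.37, SE 0.06, adjusted p = 8.10e-06) and the intermediate filament Nes (log2 1.69, SE 0.35, adjusted p = 0.000339) rose. In the list of neurotrophic factors and receptors 2 of 15 tested genes were called higher and 3 lower, with a median of -0.14. Sort1, a sorting receptor for neurotrophins, was among the 2 (log2 0.41, SE 0.08, adjusted p = 0.000165). Of 18 tested intermediate filament and neuronal cytoskeleton genes 4 were called higher and 3 lower, with a median of 0.04. Among the 4, the neurofilament Nefh rose from 19.9 and 23 to 36.1 and 36.8 (log2 0.76, SE 0.10, adjusted p = 5.65e-08) and the tau gene Mapt from 1.65 and 1.23 to 3.77 and 3.77 (log2 1.38, SE 0.30, adjusted p = 0.000698). No group overlapped with the other in Erbb3, Gdnf, Nefh or Mapt. The neuron markers in the table summed to 133 to 135 CPM of library totals with PVDF@PDA, 96.1 to 101 in Control and 125 to 135 with PCL@PDA. Uchl1 and Nefh made up most of the sum, while Rbfox3, Tubb3 and Elavl4 had at most 5 counts in any PVDF@PDA or Control library. Against Control 2 of the 6 tested, Nefh and Uchl1 (log2 0.30, SE 0.07, adjusted p = 0.00196), were called. The call of Uchl1 ended without Control replicate 3 (adjusted p = 0.103) and by limma on log2(FPKM + 1) (0.0517). Whether a shift in cell identity took part was not tested. In the Notch pathway, the ligand Jag1 stood at 32.3 and 32 against 18.5 and 18.2 (log2 0.81, SE 0.10, adjusted p = 3.47e-08), while the DNA-binding partner Rbpj fell (log2 -0.23, SE 0.05, adjusted p = 0.000398). Of 14 retinoid genes 3 were higher (background 6.79%), 5 with the replicate block. The retinol dehydrogenase Rdh5 (log2 1.73, SE 0.25, adjusted p = 6.77e-07) and the binding protein Crabp2 (log2 0.62, SE 0.14, adjusted p = 0.000751) were among the 3.

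Transcripts of extracellular matrix genes moved both ways, beside 6.79% higher and 8.90% lower over all genes. Tnc, a matrix glycoprotein of injured nerve, fell from 1398 and 1476 to 793 and 832 CPM (log2 -0.82, SE 0.05, adjusted p = 1.08e-18), the second largest loss in mean CPM after the elongation factor Eef1a1. Eef1a1 itself (log2 -0.16, SE 0.04, adjusted p = 0.00756) was not called without any 1 of the 4 libraries. Among 25 collagen and crosslinking genes 7 were called higher and 6 lower, the 7 becoming 3 without PVDF@PDA replicate 3 or Control replicate 1. The fibrillar chains Col11a1, at 118 and 116 against 185 and 184 (log2 -0.66, SE 0.06, adjusted p = 1.51e-12), and Col5a2 (log2 -0.43, SE 0.05, adjusted p = 6.72e-09) fell. Col1a1, also a fibrillar chain, rose (log2 0.68, adjusted p = 4.01e-05). Plod2, which hydroxylates collagen for crosslinks, rose from 66.2 and 79.1 to 110.1 and 119.6 (log2 0.66, SE 0.07, adjusted p = 1.06e-08). Both groups were separate in each of these. Among basal lamina, integrin and glycoprotein genes 7 of 29 were lower and 4 higher, with 4 lower without PVDF@PDA replicate 1 or Control replicate 3 and 1 higher without either PVDF@PDA library or Control replicate 1. Thbs2 (log2 -0.35, SE 0.05, adjusted p = 1.10e-06) and the laminin receptor chain Itga6 (log2 -0.28, SE 0.05, adjusted p = 9.60e-05) were among the falls. The fibroblast markers summed to 852 to 874 CPM of library totals against 877 to 891, most of it Col1a2, at 608 and 617 against 660 and 661. Of the 6 tested, 3 were called higher: Pdgfra (log2 0.65, adjusted p = 9.86e-06), Pdgfrb (log2 0.77, adjusted p = 0.00786) and Col1a1. Col1a2 was the 1 called lower (log2 -0.15, adjusted p = 0.0347). Dcn and Tcf21 had 0 or 1 count in each library of the comparison. The part of other cells in the collagen changes was not tested.

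Other called genes of small p belong to the cytoskeleton, transport and growth control. Rhob, an endosomal GTPase, stood at 191 and 179 CPM against 104 and 99.3 (log2 0.87, SE 0.06, adjusted p = 9.36e-17), and Apln, a peptide hormone of vessels, at 35.8 and 36.2 against 18.4 and 18.5 (log2 0.97, SE 0.10, adjusted p = 9.07e-11). The actin organiser Synpo (log2 0.69, SE 0.07, adjusted p = 2.35e-11) and the taurine transporter Slc6a6 (log2 0.54, SE 0.06, adjusted p = 1.81e-10) rose as well. Arl4c, a GTPase of membrane traffic, fell to 323 and 322 from 512 and 529 (log2 -0.69, SE 0.05, adjusted p = 1.71e-15), and Arhgap11a, a mitotic GTPase-activating protein, to 170.2 and 167 from 282 and 288 (log2 -0.76, SE 0.06, adjusted p = 2.78e-15). The mesenchymal transcription factor Prrx1 was lower too (log2 -0.74, SE 0.06, adjusted p = 4.85e-14). Hmox1, the haem oxygenase of the NRF2 list, rose from 78.1 and 90.3 to 152 and 191 (log2 1.02, SE 0.09, adjusted p = 8.11e-07); its adjusted p was 0.0628 with only the 4 libraries compared, 0.0627 without PCL@PDA replicate 1 and 0.0681 without PCL@PDA replicate 3.

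Few genes were called as shifted further with PVDF@PDA than with PCL@PDA. Direct comparison of the materials equals the difference between their shifts from Control, since Control cancels, and it shares the PVDF@PDA libraries with the shift itself. It called 8 of 13018 genes (0.0615%), 7 higher (0.0538%) and 1 lower (0.00768%), and 1105 (8.49%) had an unadjusted p below 0.05. Of the 2042 genes that differed from Control, 1138 had a difference from PCL@PDA of the same sign, 148 of them with an unadjusted p below 0.05 (48 higher, 100 lower), and 84 had one of the opposite sign at that level. Spread in the shared PVDF@PDA libraries favours the same sign in genes chosen by their difference from Control. No conclusion is therefore drawn from 148 against 84. For 8999 of all tested genes the 95% interval of the difference between the materials lay within 0.5 of 0 on the log2 scale. After adjustment 4 remained in the same direction: Best1, Wdr38 and Cacna2d4 higher and Slc39a13 lower. The fifth gene called in both comparisons, the collagenase Mmp13, moved less with PVDF@PDA (log2 -0.38 from Control) than with PCL@PDA (-0.68). The other 3 calls, Lrrc39, Slc24a5 and LOC120094192, were not called against Control.

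The 3 called rises were of different size and stability. Best1, a chloride channel that calcium opens, stood at 8.2 and 14.6 CPM with PVDF@PDA against 5.61 and 6.14 in Control and 5.01 and 4.26 with PCL@PDA. Its log2 difference from Control was 0.96 (SE 0.20, adjusted p = 0.000736) and that from PCL@PDA 1.30 (SE 0.21, adjusted p = 0.00205). PVDF@PDA replicate 3 was well above replicate 1, and without it the difference from Control was 0.48 (adjusted p = 0.275). Cacna2d4 encodes an accessory chain of calcium channels that open on depolarisation. It stood at 6.83 and 12.3 against 4.98 and 3.91 with PCL@PDA and 4.59 and 3.82 in Control. On the log2 scale it differed from Control by 1.19 (SE 0.23, adjusted p = 0.000152), or 0.70 (adjusted p = 0.101) without PVDF@PDA replicate 3, again the higher library, and from PCL@PDA by 1.11 (SE 0.22, adjusted p = 0.0263). That call against PCL@PDA ended with DESeq2 (adjusted p = 0.229), library totals alone (0.0717), the length trend removed (0.05002) and PCL@PDA replicate 3 left out (0.51). By limma on log2(FPKM + 1) neither gene was called against Control (adjusted p = 0.0743 for Best1 and 0.072 for Cacna2d4). Wdr38, a WD-repeat protein, stood at 71.3 and 76 against 58.4 and 46.3 with PCL@PDA and 56.3 and 57.2 in Control, with both PVDF@PDA libraries above the other 4; over all genes the 2 materials did not overlap in 38.0%. Its log2 difference from Control was 0.38 (adjusted p = 0.00079) and that from PCL@PDA 0.49 (adjusted p = 0.00205), a call that ended when PCL@PDA replicate 3 was left out (0.16). In the GRCr8 annotation Wdr38 overlaps the ribosomal protein gene Rpl35 (mean 646 CPM with PVDF@PDA, 631 in Control), Cacna2d4 overlaps Adipor2, and Best1 lies within 100 bases of the ferritin gene Fth1 and of Rab3il1. Against Control both neighbours of Best1 were called higher (log2 0.15, adjusted p = 0.0188, and 0.51, adjusted p = 0.000582), and between the materials neither was called. The counting strand is not given in the sources used here, so reads of overlapping genes cannot be told apart.

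Slc39a13, a zinc transporter of the Golgi, was the one called fall. Its CPM was 43.2 and 45.4 with PVDF@PDA, 54 and 59.9 in Control and 56.3 and 58.4 with PCL@PDA. Both PVDF@PDA libraries lay below the other 4, which overlapped one another, and the log2 difference was -0.36 from Control (adjusted p = 0.000728) and -0.37 from PCL@PDA (adjusted p = 0.0354). The call against Control ended without Control replicate 3 (adjusted p = 0.0555). The call against PCL@PDA ended with DESeq2 (adjusted p = 0.0988), library totals alone (0.0639), a non-robust fit (0.0501) and the length trend removed (0.0892). It also ended when PVDF@PDA replicate 1 (0.416) or PCL@PDA replicate 3 (0.242) was left out. With PVDF@PDA replicate 3 left out, 0 genes were called between the materials and 722 had an unadjusted p below 0.05. Without PCL@PDA replicate 3 the count was 2 (Best1 and Mmp13), without PCL@PDA replicate 1 it was 827, and limma called 0, with 971 at an unadjusted p below 0.05.

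Deviations from the group means in same-batch libraries of the 2 materials correlated at only 0.01. With the replicate number as a block, edgeR called 59 genes between the materials, 17 higher and 42 lower. DESeq2 with the block called 15, gave 2149 genes an adjusted p and kept 1 of the 8 calls made without the block. Of the 59, 17 also differed from Control, 11 of them in the same direction. The 5 higher genes were Best1, Wdr38 and Cacna2d4 with the lysine catabolism enzyme Phykpl and the TNF family ligand Tnfsf18. The 6 lower ones were Slc39a13, the secreted factor Mydgf, the actin-binding protein Pfn1, the ribosomal protein Rpl18, the glycine transporter Slc6a9 and the proline catabolism enzyme Aldh4a1 (log2 -0.25 from Control; -0.26 from PCL@PDA, adjusted p = 0.314, or 0.0489 with the block). The call of Aldh4a1 against Control ended without PVDF@PDA replicate 1 (adjusted p = 0.218), Control replicate 1 (0.0612) or Control replicate 3 (0.119), with library totals alone (0.0643), by DESeq2 (0.054) and by limma on log2(FPKM + 1) (0.216). Phykpl stood at 40.8 and 48.3 CPM against 36.1 and 29.95 with PCL@PDA and 32.6 and 37.7 in Control (log2 0.34 from Control, adjusted p = 0.0119; 0.43 from PCL@PDA, adjusted p = 0.0819, or 0.00205 with the block). It overlaps Hnrnpab. Tnfsf18 stood at 244 and 259 against 235 and 206 with PCL@PDA and 222 and 200.3 in Control (log2 0.25 from Control; 0.19 from PCL@PDA, adjusted p = 0.398, or 0.0386 with the block and 0.122 by DESeq2 with the block). In both genes the PVDF@PDA libraries lay above the other 4.

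Mydgf stood at 26.5 and 31.3 CPM against 35.6 and 42 with PCL@PDA and 37.3 and 38 in Control (log2 -0.38 from Control; -0.42 from PCL@PDA, adjusted p = 0.0778, or 0.0037 with the block). It overlaps Tnfaip8l1, which was itself called lower than in Control (log2 -0.58, adjusted p = 0.0117). Pfn1, which supplies actin monomers to growing filaments, stood at 267 and 262 against 291 and 319.8 with PCL@PDA and 297 and 319 in Control (log2 -0.22 from Control; -0.21 from PCL@PDA, adjusted p = 0.234, or 0.00892 with the block). Slc6a9 stood at 52.1 and 50.5 against 54 and 71.7 with PCL@PDA and 73.8 and 71.8 in Control (log2 -0.51 from Control; -0.29 from PCL@PDA, adjusted p = 0.392, or 0.0386 with the block). The PVDF@PDA libraries were the lowest pair in each, and PCL@PDA replicate 3 was the highest or near the highest library while replicate 1 lay closer to PVDF@PDA. The calls against Control ended without PVDF@PDA replicate 1 for Mydgf (adjusted p = 0.164), and for Pfn1 without replicate 3 of PVDF@PDA (0.0635) or of Control (0.123). Those of Phykpl ended without PVDF@PDA replicate 3 (0.322) or Control replicate 1 (0.21), and of Tnfsf18 without replicate 3 of PVDF@PDA (0.0767) or of Control (0.131). Limma on log2(FPKM + 1) called none of Phykpl, Tnfsf18, Mydgf, Pfn1 and Slc6a9 against Control.

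**Figure D4:**
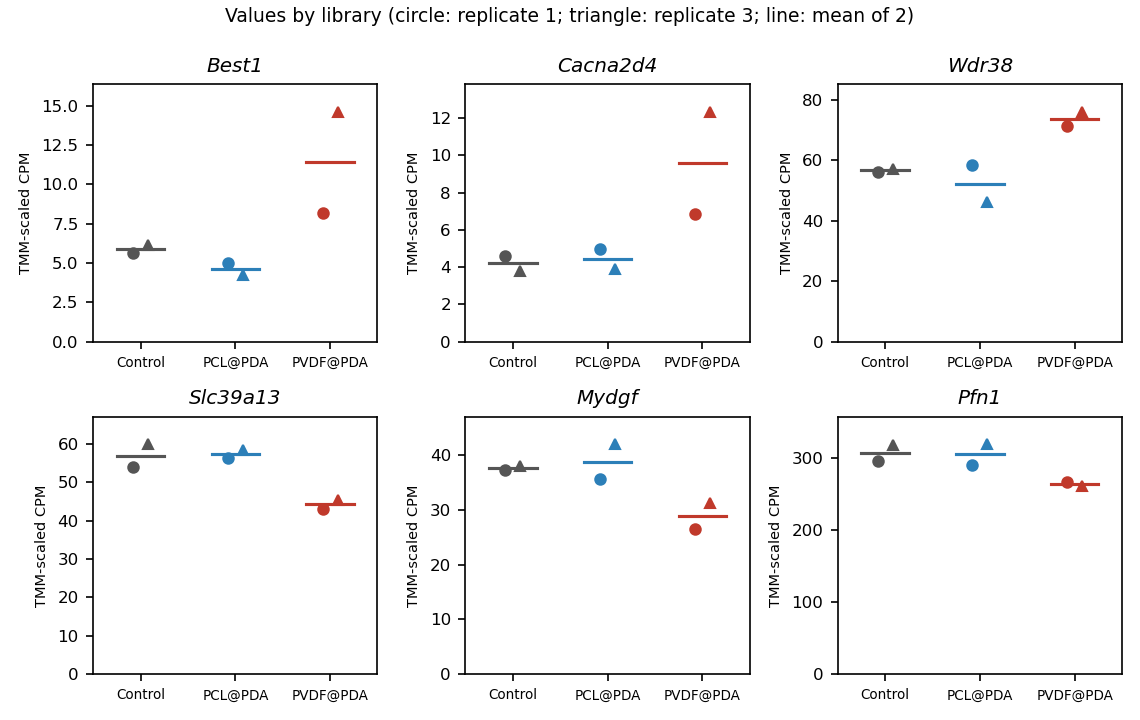
TMM-scaled CPM of 6 genes in each library of Control, PCL@PDA and PVDF@PDA, with circles for replicate 1, triangles for replicate 3 and a line at the mean of the 2. The PVDF@PDA libraries lie above the other 4 for Best1, Cacna2d4 and Wdr38 and below them for Slc39a13, Mydgf and Pfn1, and replicate 3 is the higher PVDF@PDA library for Best1 (14.6 against 8.20).

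Outside the calls, the rule for larger shifts named further genes that did not pass the test between the materials. Among them were the falls Sapcd2, Preb, Cdk10 and Scamp4 and the rises MGC109340 and Tm4sf19 (adjusted p = 0.305 to 0.421 between the materials). Nipa1, a magnesium transporter, stood at 48.8 and 48.4 CPM against 42.6 and 40.0 with PCL@PDA and 33.2 and 35.3 in Control (log2 0.51 from Control; 0.23 from PCL@PDA, 95% interval 0.06 to 0.41, adjusted p = 0.424). Sptssa, a subunit of the first enzyme of sphingolipid synthesis, stood at 65.9 and 70.2 against 61.3 and 55.4 with PCL@PDA and 55.4 and 54.7 in Control (log2 0.31 from Control; 0.22 from PCL@PDA, interval 0.07 to 0.37, adjusted p = 0.401). Its difference from PCL@PDA was 0.15 without PCL@PDA replicate 3 and 0.17 without PVDF@PDA replicate 3. The rule chose Nipa1 and Sptssa by a small unadjusted p, so unadjusted intervals that leave out 0 are no further support. Both genes ran in the order Control, PCL@PDA, PVDF@PDA by their means, with the PVDF@PDA libraries on top. The call of Sptssa against Control ended without PVDF@PDA replicate 3 (adjusted p = 0.0986). Between the materials, 16 of 31 tested mechanosensitive and calcium channel genes lay higher with PVDF@PDA (median difference 0.01). Orai1, the pore of store-operated calcium entry, comes from that list and was not chosen by the rule for larger shifts. It stood at 11.5 and 10.5 against 13.5 and 15.6 with PCL@PDA and 14.8 and 16 in Control, the lowest pair being PVDF@PDA. Its log2 difference was -0.49 from Control and -0.41 from PCL@PDA (interval -0.69 to -0.13, adjusted p = 0.401). Its call against Control ended without PVDF@PDA replicate 3 (adjusted p = 0.137) or Control replicate 3 (0.106). Of 31 tested mechanosensitive and calcium channel genes 4 were called higher than in Control and 3 lower (6.79% and 8.90% over all genes), 1 of these 7, Cacna2d4, also between the materials. Without PVDF@PDA replicate 3 or Control replicate 1 the counts were 1 and 1.

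**Figure D5:**
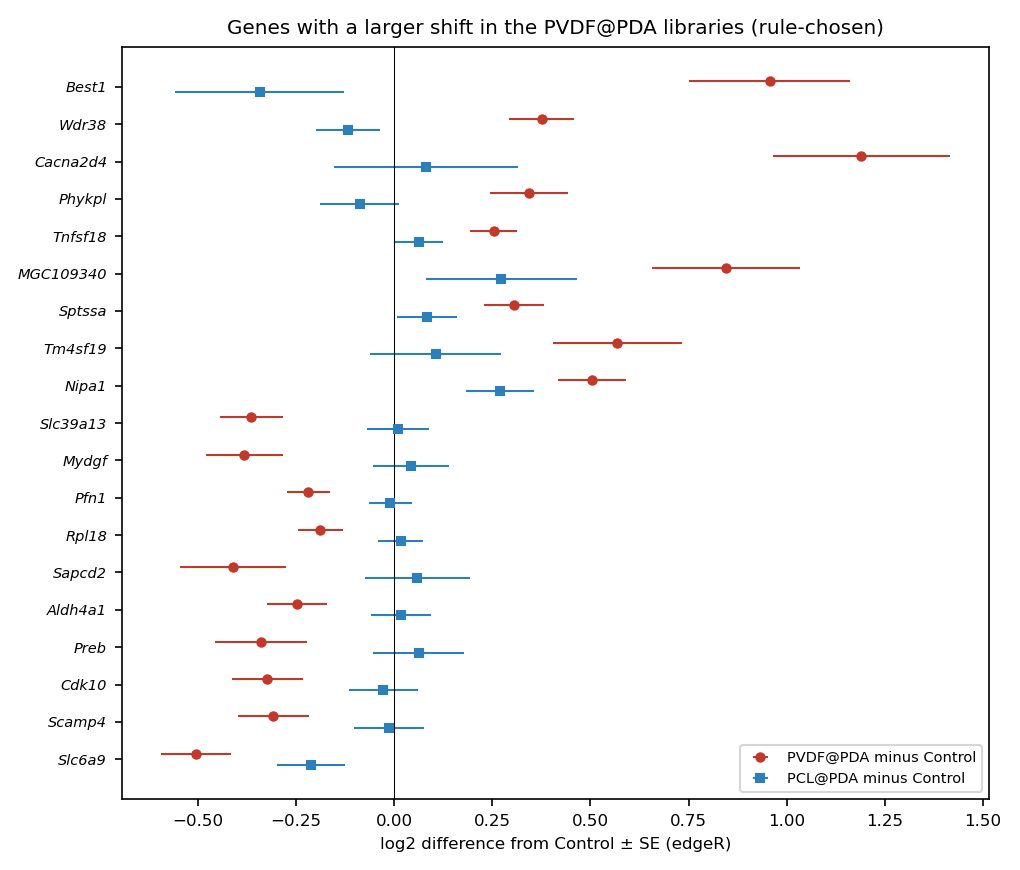
Log2 difference from Control with its SE for PVDF@PDA (red circles) and PCL@PDA (blue squares), for 9 of the 10 rises and the 10 falls that the rule on larger shifts chose by the smallest unadjusted p between the materials. Red points lie further from 0 because the rule asked for it; Best1, Wdr38, Cacna2d4 and Slc39a13 passed the test between the materials.

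No complement gene was called between the materials. Of 12 tested complement genes 11 lay higher with PVDF@PDA than with PCL@PDA, with a median difference of 0.18 against 0.00 over all genes. Other lists with 0 calls also leaned to one side. Of 19 glycolysis genes 3 lay higher, of 37 replication genes 8 and of 27 NRF2 genes 5. Whether a list leaned to one side was not tested. Against Control 4 complement genes were called higher and 1 lower (6.79% and 8.90% over all genes), with a median of 0.22, beside -0.03 with PCL@PDA. C3, the central component, stood at 4.16 and 3.1 CPM against 2.23 and 2.66 with PCL@PDA and 1.74 and 0.775 in Control (log2 1.53, SE 0.34, adjusted p = 0.00091 from Control). It was called against Control but not without Control replicate 3 (adjusted p = 0.0656). Cfb, the protease partner of C3 and outside the naming rule, had 42 counts over both PVDF@PDA libraries, 20 over PCL@PDA and 3 over Control, a ratio to Control of 14.6 with a counting interval of 4.66 to 73.5. That interval pools the reads of each group and leaves out the spread between libraries, so it is too narrow for a difference between conditions. Cd55, which protects cells from complement, fell (log2 -0.29, SE 0.06, adjusted p = 0.000339). The 4 called higher became 1 without PVDF@PDA replicate 3 or Control replicate 1 and 2 without Control replicate 3. Among 46 cytosolic ribosomal proteins 5 were called lower, near the 8.90% of all genes, and 0 higher, and 8 lower with the replicate block, 2 without Control replicate 3 and 1 by limma on log2(FPKM + 1). Rpl18 stood at 245 and 245 against 263 and 301 with PCL@PDA and 269 and 289 in Control (log2 -0.19 from Control; -0.21 from PCL@PDA, adjusted p = 0.266, or 0.0163 with the block). With the block 4 ribosomal proteins, Rpl18 and, outside the naming rule, Rplp0, Rpl13 and Rplp1, were called lower than with PCL@PDA. The call of Rpl18 against Control ended without either PVDF@PDA library (adjusted p = 0.0965 and 0.108), without Control replicate 3 (0.242) and with library totals alone (0.0713). Genes that were lower and more so than with PCL@PDA at an unadjusted p below 0.05 had a median length of 2352 bases and those higher and more so 2774.5, against 3129 over all tested genes, and whether length took part was not tested beyond a fit with the length trend removed, which called 6 genes between the materials.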

How the data were processed

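RNA was sequenced from 6 RSC96 libraries, 2 per group, whose labels pair them by batch. Read counts per gene and FPKM (read counts per length and depth) are in the authors' deposited table; per the submitters' processing notes DESeq2 1.4.5 and build mRatBN7.2 were used, and for the aligner, counter and strand setting none is stated in those sources. Counts as deposited were fitted in R 4.3.3 with edgeR 4.0.16 (TMM, filterByExpr, robust quasi-likelihood test, 3 group means over 6 libraries, 3 residual degrees of freedom), which removed 3831 genes. Alternatives were other scalings, no filter, a non-robust fit, only the 4 libraries compared, DESeq2 1.42.0, limma 3.58.1 on log2(FPKM + 1) and log2(FPKM + 0.1), a replicate block, and leaving out each library. A fit with the length trend removed and DESeq2 with the block were chosen after seeing the data. Deviations of same-batch libraries correlated at 0.06 (PVDF@PDA and Control), 0.01 (PVDF@PDA and PCL@PDA) and 0.17 (PCL@PDA and Control), and the pairing comes from the batch label. Named genes reach 1 or more in mean log2 CPM and have a symbol other than a locus identifier, a call against Control and the same direction in both batches. They are the 10 largest rises and falls, the 10 of smallest p each way, the 6 largest gains and losses in CPM, the 10 rises and 10 falls most different from PCL@PDA, up to 5 members per list, and every gene called between the materials; exceptions are named as such. Members and lists were chosen with earlier results of these data known. The fit was tested on simulated counts. A few genes counted in the lists and totals are not reported here by name. A count of 3 is a floor of 0.0848 to 0.0916 CPM. Labels of the PCL@PDA libraries conflict in their free text, and their titles and treatment field were followed.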

Additional observations from a re-analysis of the deposited data

How the results depend on the processing

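The 2042 calls against Control became 926 and 997 by limma on log2(FPKM + 1) and log2(FPKM + 0.1), and 1031 to 2869 when 1 library was left out. The 8 calls against PCL@PDA became 5 with library totals alone, 5 with DESeq2, 17 with no filter on low counts, 59 with the replicate block, 15 by DESeq2 with the replicate block (which gave 2149 genes an adjusted p, kept 1 of the 8 calls and gave Best1, Wdr38, Cacna2d4 and Slc39a13 none), 0 by limma at either pseudocount, and 0 to 827 without 1 library. NF-kB genes called lower were 8 by limma at either pseudocount. Without 1 library, HIF genes called higher ranged from 10 to 18, glycolysis genes from 5 to 11 and interferon genes called lower from 7 to 18. LOC120094192 and Slc24a5, neither called against Control, ranged without 1 library from -1.06 to 1.02 and from -0.13 to 0.89 on the log2 scale, and were below 0 without PVDF@PDA replicate 3. The cause of these changes was not tested. The counts of mitosis, replication and cytokine calls stayed within 1.5 times under each alternative run. Of 256 results on single named genes, 256 kept their side of the threshold with RLE size factors, 254 with a non-robust fit, 190 without PVDF@PDA replicate 3 and 182 by limma on log2(FPKM + 1). Among these the block changed 7 calls, all between the materials and given beside the genes.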

Other observations

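Pathways of the deposited KEGG annotation, chosen after their values were seen and given without a test, placed the calls against Control in further groups. In the citrate cycle 7 of 28 tested genes were called lower and 3 higher, with a median log2 difference of -0.11, beside a background of 8.90% lower and 6.79% higher. NOD-like receptor signalling, which senses microbes in the cytosol, had 30 of 123 lower and 9 higher.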
